A study of Homo sapiens with 12 samples.

Results

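The 43 genes described here make and use glutathione or remove peroxides, superoxide and free haem: the regulators NFE2L2 and KEAP1, the enzymes of glutathione synthesis and recycling, glutathione peroxidases, glutathione transferases, thioredoxins, peroxiredoxins, superoxide dismutases, catalase and proteins of haem and iron handling. They were chosen by gene symbol, and the brightest transcript cluster (a set of probes for a gene) stood for each gene. Of the 43, 41 had a cluster with a single gene name, out of 18417 genes tested. PRDX5 and FTH1 were not analysed here. Expression was read on 12 Affymetrix arrays, 3 in each of 4 groups. The sensitive line, KS, is K562, established from chronic myeloid leukaemia cells with erythroid features. The resistant line, KA, is K562/ADR, which arose from K562 under adriamycin (doxorubicin) and was kept in 50 nM of it. Each line was read untreated and after 72 hours in 5 nM decitabine, a cytidine analogue whose incorporation into DNA depletes DNA methyltransferases. The study asked how decitabine acts on multidrug resistance carried by the efflux pump P-glycoprotein. Line and adriamycin exposure cannot be told apart, since KA alone was kept in the drug. Neither what untreated cells received, nor whether adriamycin was present during decitabine treatment, nor whether replicates were separate cultures is stated, and a p-value therefore reflects only how these arrays spread, which may be technical.

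Glutathione is built from glutamate, cysteine and glycine by glutamate-cysteine ligase (the catalytic subunit GCLC and the modifier GCLM) and glutathione synthetase (GSS), and its oxidised form is returned to the reduced form by glutathione reductase (GSR). Peroxidases use it to reduce hydrogen peroxide and lipid peroxides, and transferases join it to electrophiles, drugs among them. The transcription factor NRF2 (NFE2L2) drives many of these genes and is held low by KEAP1 until oxidants or electrophiles modify that protein. Anthracyclines such as adriamycin can cycle between redox states and yield superoxide.

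Values are log2 intensities, a difference of 1 being a doubling, and are given for replicates 1, 2 and 3 in that order. Differences carry their standard error (SE). A gene is called higher or lower at an adjusted p under 0.05 over all 18417 genes in limma. The median of an array was 4.96 to 5.01, and within groups the correlation across clusters was 0.990 to 0.995. ABCB1, which encodes P-glycoprotein, read 3.39 ± 0.21 in untreated KS and 11.22 ± 0.04 in untreated KA (mean ± SD, n = 3), as the line labels have it. Of 9 erythroid markers, 8 exceeded 7 in at least 1 group, and the mean of the 9 lay between 8.82 and 9.40 on every array. The mean of 10 lymphoid markers lay between 4.10 and 4.60, of 10 fibroblast and endothelial markers between 4.04 and 4.24, of 8 epithelial markers between 6.97 and 7.11 and of 7 myeloid markers between 5.40 and 6.23. With decitabine in KS, 6 erythroid and 3 myeloid markers were called higher, among them ALAS2, the erythroid haem synthesis enzyme (8.04 to 10.50), and LYZ, lysozyme (8.40 to 11.01). In KA 1 erythroid and 1 myeloid marker were called higher, ALAS2 (8.92 to 9.93) and LYZ (7.21 to 8.98). Of the 10 fibroblast and endothelial markers 1 was called higher with decitabine in each line, of the 8 epithelial markers 1 was called lower in KS, and of the 10 lymphoid markers 0 were called in limma (2 in KA and 1 in KS had an unadjusted p under 0.05). Between untreated lines 4 erythroid markers were higher in KA, 2 myeloid higher and 1 lower, 2 epithelial higher and 1 lower, 1 fibroblast or endothelial marker higher and 1 lower, and the T cell gene CD3D higher (4.67 in KS and 6.95 in KA, adjusted p = 1.06e-09). Of all genes, 14.6% were called higher and 15.7% lower with decitabine in KS, 9.66 and 4.96% in KA, and 11.6 and 14.1% between untreated lines. The part of the marker shifts in the results below was not tested. The highest lower quartile of the 12 arrays, 3.39, was taken as the limit of background.

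Untreated KS replicate 3 did not sit with its fellow replicates. Its median position over 477 genes, which decitabine shifted by at least 1 in KS in a fit without this array, was 31.8% of the distance towards treated KS, and treated KS replicate 1 was displaced by 14.8% towards untreated KS. The other 10 arrays lay between -17.8 and 7.70%. Of the 19 antioxidant genes called with decitabine in KS, untreated replicate 3 was the untreated array nearest the treated mean for 17. Treated KS replicate 1 was the treated array nearest the untreated mean for 7, and its fellows for 6 each, so its displacement was not seen in these genes. Antioxidant genes whose call changed without untreated KS replicate 3 are named with the results of untreated lines, decitabine in KS and responses. Without that array 14 antioxidant genes were called with decitabine in KA, of which 13 were also called with all arrays. Between treated lines 16 were called, of which 14 were also called with all arrays. The genes newly called in these comparisons (decitabine in KA and treated lines) are not named.

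Between the untreated lines, the selenium carrier SELENOP, the peroxiredoxin PRDX2 and the transferase GSTM4 were lower in KA, and the transferases GSTM3, GSTZ1 and GSTA4 were higher. In all, 19 of 41 antioxidant genes were called, 8 higher and 11 lower in KA, where 25.7% of all genes tested were called (11.6% higher and 14.1% lower). The median difference over the 41 genes was 0.0031, against 0.015 over all genes. The genes called were spread over the roles, with 7 of 8 cytosolic transferases, 3 of 6 glutathione peroxidases or selenium carriers, 3 of 6 peroxiredoxins and their reductase, 2 of 4 thioredoxin genes and none of 3 membrane transferases (limma; 0 of these 3 had an unadjusted p under 0.05). Differences of at least 0.5 were called in 7 genes, against 9.65% of all genes: SELENOP, PRDX2, GSTM4, GPX8 and GSTM2 were lower (4.98% of all genes) and GSTM3 and GSTZ1 higher (4.66%).

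Decitabine in KA raised the secreted peroxidase GPX3, the mu-class transferases GSTM2 and GSTM3, SELENOP and 4 other genes, and lowered 5, among them the peroxiredoxins PRDX1, PRDX3 and PRDX4. These 13 of 41 genes compare with 14.6% of all genes (9.66% higher and 4.96% lower), and the median over the 41 genes was 0.025 against -0.019 over all genes. Differences of 0.5 or more were called in 5 genes, all higher, where 3.34% of all genes were higher by this rule and 4.07% were called in either direction.

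Decitabine in KS raised 13 and lowered 6 of the 41 genes, against 30.3% of all genes called (14.6% higher and 15.7% lower). GPX3, GSTM3, GSTM2, SELENOP and GPX8 again rose by over 0.5 (6.17% of all genes), and SRXN1, the sulfiredoxin that repairs over-oxidised peroxiredoxins, and the haem oxygenase HMOX2 fell by over 0.5 (5.28% of all genes). The median over the 41 genes was 0.020, against -0.0066 over all genes. The count fell from 19 to 11 without untreated KS replicate 2 and to 12 without treated KS replicate 2, and was 18 without untreated KS replicate 3. Of all genes, 25.7% were called without either replicate 2 and 31.4% without untreated KS replicate 3.

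All 8 genes that decitabine raised in KA were among the 13 raised in KS (100% and 61.5% of the respective lists), where 6.18% of all genes were called higher in both lines. They were GPX3, GPX8, SELENOP, GSTM2, GSTM3, GSTK1, MGST2 and BLVRB. Over all genes, 63.9% of those raised in KA and 42.4% of those raised in KS were raised in the other line too. PRDX3, PRDX4 and HMOX2 fell in both lines (60% of 5 and 50% of 6), where 3.52% of all genes did.

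**Figure D1:**
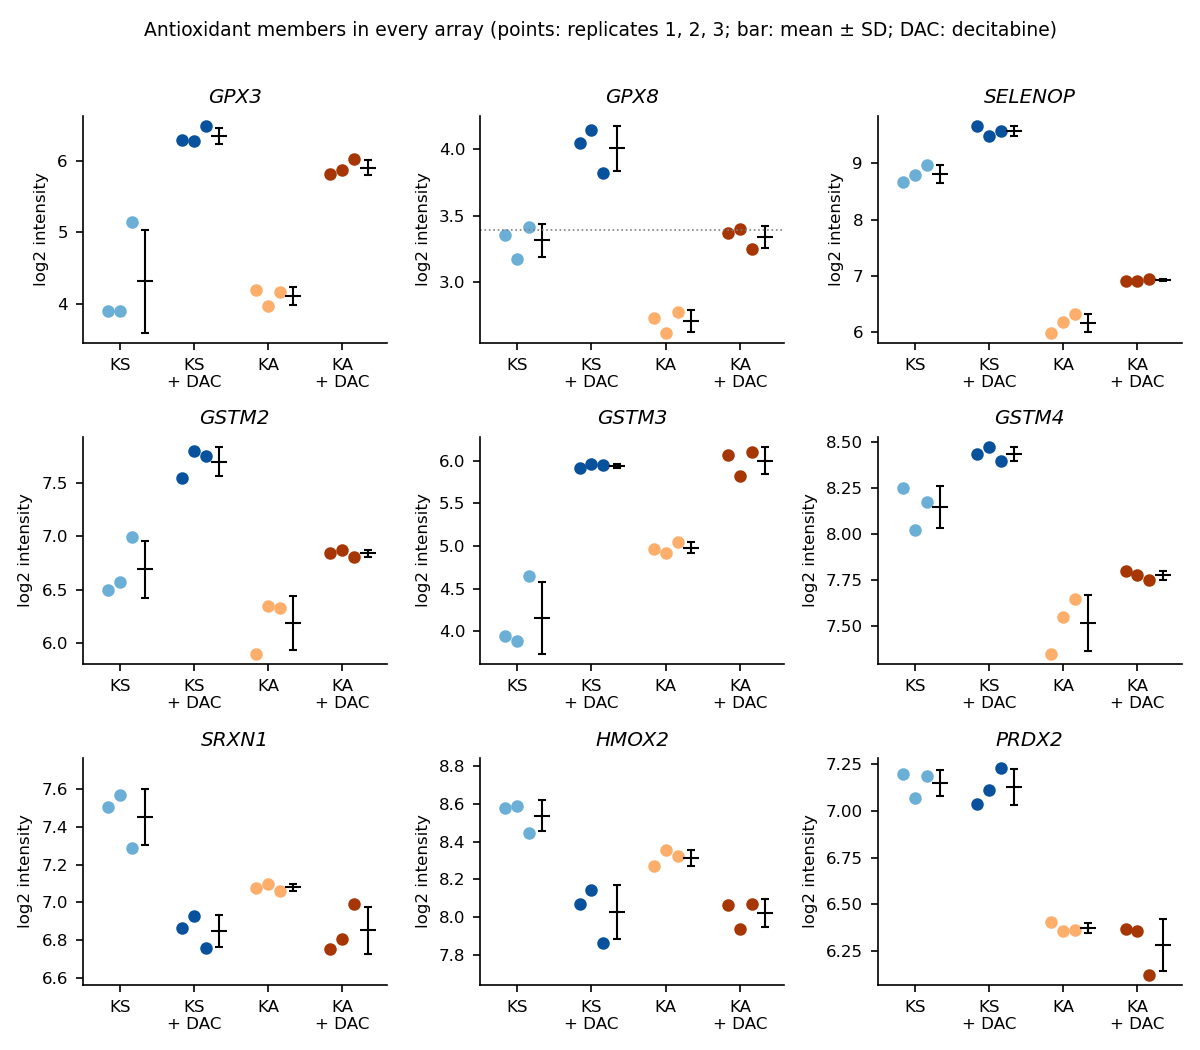
Log2 intensity of 9 antioxidant genes in untreated KS, treated KS, untreated KA and treated KA (DAC is decitabine); points are replicates 1, 2 and 3, bars the mean ± SD, and the dotted line in the GPX8 panel the background limit of 3.39. GPX3 is low in both untreated groups except for the 5.15 of untreated KS replicate 3 and reads 5.82 or more after decitabine, while SELENOP separates the lines before and after treatment.

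NFE2L2 read 8.70, 8.73 and 8.66 in untreated KS, 8.61, 8.34 and 8.59 in treated KS, 8.74, 8.81 and 8.87 in untreated KA, and 8.85, 8.71 and 8.80 in treated KA. NRF2 mRNA was called higher in treated KA than in treated KS (0.27 ± 0.08, adjusted p = 0.0239). The other differences were not called and were 0.11 ± 0.08 between untreated lines, -0.02 ± 0.08 with decitabine in KA and -0.18 ± 0.08 in KS. KEAP1 read 7.87, 7.71 and 7.77 in untreated KS, 7.52, 7.70 and 7.50 in treated KS, 7.52, 7.63 and 7.49 in untreated KA, and 7.54, 7.55 and 7.46 in treated KA. KEAP1 was lower in untreated KA than in untreated KS (-0.24 ± 0.08, adjusted p = 0.0373), with no overlap of arrays. With decitabine KEAP1 differed by -0.03 ± 0.08 in KA and by -0.21 ± 0.08, adjusted p = 0.0548 in KS, where every treated array was below every untreated array. The difference in KS was called in 5 alternatives, among them array weights and leaving out treated KS replicate 2 (adjusted p 0.024 to 0.043). The call between untreated lines was lost in 9 alternatives, among them leaving out untreated KS replicate 1 or 3, untreated KA replicate 1 or 3, or treated KA replicate 1 (adjusted p 0.050 to 0.14). The call of NFE2L2 between treated lines was lost without treated KS replicate 2 or treated KA replicate 1 or 3 (adjusted p 0.057 to 0.10, with 1 further alternative).

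Of the 5 genes of glutathione synthesis and recycling, GCLC alone was called in any comparison, alternatives aside. GCLC read 6.52, 6.60 and 6.29 in untreated KS, 6.53, 6.25 and 6.11 in treated KS, 6.0, 5.97 and 6.06 in untreated KA, and 5.96, 6.08 and 6.10 in treated KA. The catalytic subunit of the rate-limiting enzyme was thus below every untreated KS array in untreated KA, a 1.37-fold lower level (-0.46 ± 0.11, adjusted p = 0.00580). Between treated lines the difference was -0.25 ± 0.11 (adjusted p = 0.104), and without treated KS replicate 3 it was called (adjusted p = 0.0386). With decitabine in KS the difference in GCLC was -0.17 ± 0.11 and not called, but it was called without treated KS replicate 1 (adjusted p = 0.0487), whose 6.53 was the highest of that group. Without both that array and untreated KS replicate 3 it was -0.38 and called (adjusted p = 0.00679). GCLM read 6.64, 6.70 and 6.48 in untreated KS, 6.76, 6.64 and 6.69 in treated KS, 6.49, 6.53 and 6.53 in untreated KA, and 6.67, 6.67 and 6.78 in treated KA. GCLM, the modifier subunit, was not called in any comparison, and its group means spanned 6.51 to 6.71. With decitabine in KA it differed by 0.20 ± 0.07 (adjusted p = 0.0958), which was called in 1 alternative, array weights (adjusted p = 0.0350). GSS, GSR and GGCT, an enzyme that breaks down gamma-glutamyl peptides, were not called in any comparison either, with differences between -0.19 and 0.25.

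Of the 5 glutathione peroxidases and the selenium carrier SELENOP, 3 rose with decitabine in each line, where 9.66% of all genes rose in KA and 14.6% in KS. GPX3 read 3.90, 3.90 and 5.15 in untreated KS, 6.29, 6.28 and 6.48 in treated KS, 4.19, 3.97 and 4.17 in untreated KA, and 5.82, 5.87 and 6.02 in treated KA. Without treatment GPX3, the extracellular glutathione peroxidase, lay near 4 on 5 arrays and at 5.15 on untreated KS replicate 3, and every treated array lay above every untreated array of its line. It rose 3.47-fold in KA (1.79 ± 0.25, adjusted p = 0.000676) and 4.08-fold in KS (2.03 ± 0.25, adjusted p = 5.6e-05). Without untreated KS replicate 3 the rise in KS was 2.45 ± 0.10 (adjusted p = 1.83e-08). GPX3 did not differ by the test between untreated lines (-0.21 ± 0.25, adjusted p = 0.598), an interval of -0.75 to 0.33. The sign of this difference rests on untreated KS replicate 3, without which GPX3 read 0.21 ± 0.10 higher in KA (adjusted p = 0.147).

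SELENOP read 8.67, 8.79 and 8.98 in untreated KS, 9.66, 9.49 and 9.58 in treated KS, 5.99, 6.19 and 6.32 in untreated KA, and 6.92, 6.91 and 6.95 in treated KA. SELENOP, the plasma protein that carries selenium to cells in its selenocysteines, held 4 separate levels: every KA array lay below every KS array, and every treated array lay above the untreated arrays of its line. It was 6.26-fold lower in untreated KA (-2.65 ± 0.10, adjusted p = 6.54e-10) and 6.27-fold lower in treated KA (-2.65 ± 0.10, adjusted p = 6.91e-10). Decitabine raised it 1.70-fold in KA (0.76 ± 0.10, adjusted p = 0.000397) and in KS (0.76 ± 0.10, adjusted p = 6.82e-05), and the difference between these rises was -0.0012 ± 0.14, with a 95% interval of -0.30 to 0.29. The gene lies over part of CCDC152 in GRCh38.p14, so reads of these overlapping genes cannot be told apart here.

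GPX8 read 3.36, 3.18 and 3.41 in untreated KS, 4.05, 4.15 and 3.82 in treated KS, 2.73, 2.62 and 2.78 in untreated KA, and 3.37, 3.40 and 3.25 in treated KA. GPX8, a peroxidase of the endoplasmic reticulum, was dim, and untreated KS, untreated KA and treated KA had means at or below the background limit. It was called higher with decitabine in KS (0.69 ± 0.09, adjusted p = 0.000128), from an untreated mean below the limit, and called in KA (adjusted p = 0.00105) and between untreated lines (adjusted p = 0.000361), where both groups were at or below the limit and no fold is given. Treated KA lay below treated KS (-0.67 ± 0.09, adjusted p = 0.000154). GPX4, which reduces lipid peroxides in membranes, was lower in untreated KA (-0.27 ± 0.06, adjusted p = 0.00562) and was not called with decitabine. GPX7 was not called in any comparison. GPX1, the abundant cytosolic peroxidase, was not called on its brightest cluster, but a second GPX1 cluster rose with decitabine in KS (0.77 ± 0.12, adjusted p = 0.000312 over all clusters), so the clusters disagree and GPX1, which has processed pseudogenes, is uncertain.

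Because decitabine depletes DNA methyltransferases, which methylate CG pairs, the CG pairs of some start regions are shown. These are the regions of GPX3 and GSTM3, which rose most with decitabine among the 41 genes, and of SELENOP. They run from 250 bases before to 50 after the start in RefSeq (GRCh38.p14), with each CG in capitals: GPX3 at chr5:151020341-151020640 on the plus strand, GSTM3 at chr1:109740989-109741288 on the minus strand and SELENOP at chr5:42811843-42812142 on the minus strand.
GPX3: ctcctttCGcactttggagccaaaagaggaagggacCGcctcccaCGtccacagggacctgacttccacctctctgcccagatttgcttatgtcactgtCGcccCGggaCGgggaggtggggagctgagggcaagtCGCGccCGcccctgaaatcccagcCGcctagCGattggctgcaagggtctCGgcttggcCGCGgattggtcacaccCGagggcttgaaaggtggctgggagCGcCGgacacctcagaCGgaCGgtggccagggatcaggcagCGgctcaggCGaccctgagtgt
GSTM3: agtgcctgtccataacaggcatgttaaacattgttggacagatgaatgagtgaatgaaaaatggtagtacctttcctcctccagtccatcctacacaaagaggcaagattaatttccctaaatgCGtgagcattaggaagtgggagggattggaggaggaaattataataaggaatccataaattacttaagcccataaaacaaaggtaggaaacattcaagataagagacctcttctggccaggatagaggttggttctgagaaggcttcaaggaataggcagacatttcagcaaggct
SELENOP: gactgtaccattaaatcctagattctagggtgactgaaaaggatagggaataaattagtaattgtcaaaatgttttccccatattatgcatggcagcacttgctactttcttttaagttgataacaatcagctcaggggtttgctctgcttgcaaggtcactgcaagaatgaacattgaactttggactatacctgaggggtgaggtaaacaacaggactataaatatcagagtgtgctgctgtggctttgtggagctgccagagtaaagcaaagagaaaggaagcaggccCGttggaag
The GPX3 window held 21 CG pairs and those of GSTM3 and SELENOP held 1 each. The median over 34943 RefSeq windows was 14 (quartiles 4 and 28). Of all windows, 60.6% held fewer CG than GPX3 and 3.98% held fewer than GSTM3 or SELENOP. Methylation was not measured.

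Of the 8 cytosolic glutathione transferases, 7 were called between the untreated lines, 4 higher and 3 lower in KA, where 11.6 and 14.1% of all genes were. GSTM3 read 3.95, 3.89 and 4.65 in untreated KS, 5.91, 5.96 and 5.95 in treated KS, 4.97, 4.92 and 5.04 in untreated KA, and 6.07, 5.82 and 6.10 in treated KA. GSTM3 was higher in every untreated KA array than in any untreated KS array (0.82 ± 0.16, adjusted p = 0.00174), rose in KA to a 2.03-fold higher level (1.02 ± 0.16, adjusted p = 0.00123) and rose in KS to a 3.43-fold higher level (1.78 ± 0.16, adjusted p = 8.78e-06). After treatment the lines overlapped (0.06 ± 0.16, adjusted p = 0.843). Untreated KS replicate 3 read above its 2 fellows, and without it the difference between untreated lines was 1.06 ± 0.09 and the rise in KS 2.02 ± 0.09.

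GSTM2 read 6.50, 6.57 and 7.0 in untreated KS, 7.55, 7.81 and 7.75 in treated KS, 5.90, 6.34 and 6.33 in untreated KA, and 6.84, 6.87 and 6.81 in treated KA. GSTM2 rose 1.57-fold with decitabine in KA (0.65 ± 0.14, adjusted p = 0.00819) and 2.02-fold in KS (1.01 ± 0.14, adjusted p = 0.000131), with no overlap in either line. It was lower in KA than in KS without treatment (-0.50 ± 0.14, adjusted p = 0.0174) and with it (-0.86 ± 0.14, adjusted p = 0.000423). The call between untreated lines was lost without untreated KS replicate 3 (-0.35, adjusted p = 0.0629) and without untreated KA replicate 1, whose 5.90 was the lowest value, and adjusted p ran up to 0.080 over the 4 alternatives that lost it. GSTM4 read 8.25, 8.02 and 8.17 in untreated KS, 8.43, 8.47 and 8.40 in treated KS, 7.35, 7.55 and 7.65 in untreated KA, and 7.80, 7.77 and 7.75 in treated KA. GSTM4 was lower in every KA array than in any KS array, 1.55-fold without treatment (-0.63 ± 0.08, adjusted p = 0.000100) and 1.58-fold with it (-0.66 ± 0.08, adjusted p = 6.51e-05). With decitabine it was called in KS (0.29 ± 0.08, adjusted p = 0.0202) and not in KA (0.26 ± 0.08, adjusted p = 0.0566). The KS call was lost without untreated or treated KS replicate 2 and without both arrays in doubt (adjusted p 0.062 to 0.088). GSTM2 and GSTM4 share sequence with GSTM1 and GSTM5, so their signals may be mixed and are uncertain.

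The GSTM genes lie side by side on chromosome 1, and in GRCh38.p14 order some genes beyond them were also called with decitabine. In both lines genes that were not called lay between those called. Of all genes, 14.6% were called with decitabine in KA and 30.3% in KS. The 5 measured genes before GSTM4 (AMIGO1, GPR61, GNAI3, GNAT2 and AMPD2) were not called in either line. GSTM1, which is not among the 43, read 0.25 ± 0.10 higher in KA and was not called, and rose by 0.43 ± 0.10 in KS (adjusted p = 0.00391). GSTM5 was not called in KA (0.21 ± 0.10), where the untreated and treated means (3.16 and 3.37) were below the background limit. It rose by 0.58 ± 0.10 in KS (adjusted p = 0.000577). EPS8L3 was not called, whereas CSF1, a macrophage growth factor, rose by 0.87 ± 0.13 in KA and 1.11 ± 0.13 in KS, and AHCYL1, an inositol trisphosphate receptor binding protein, by 0.47 ± 0.08 and 0.74 ± 0.08. UBL4B and SLC6A17 beyond them were not called. Around GPX3, ANXA6 was the measured neighbour called in both lines (0.79 ± 0.14 in KA and 1.21 ± 0.14 in KS), while TNIP1, which lies between them, was not called. Around SELENOP no measured neighbour was called in both lines. In KS alone RIMOC1 fell (-0.48 ± 0.09) and ANXA2R rose (0.36 ± 0.12). None of the measured neighbours of GPX8 was called in either line. Between untreated lines ANXA2R (-0.72, adjusted p = 0.000773) and ZNF131 (-0.38, 0.0141) near SELENOP were also lower in KA. RIMOC1, FBXO4, GHR and NIM1K there were not called. Near GSTM2 and GSTM4, AMPD2, GSTM1, GSTM5 and CSF1 were lower in untreated KA (-0.42, -0.32, -0.36 and -1.03). The other genes outside the GSTM cluster in that row were not called, and 14.1% of all genes were lower. These neighbours were named after their values were seen.

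**Figure D2:**
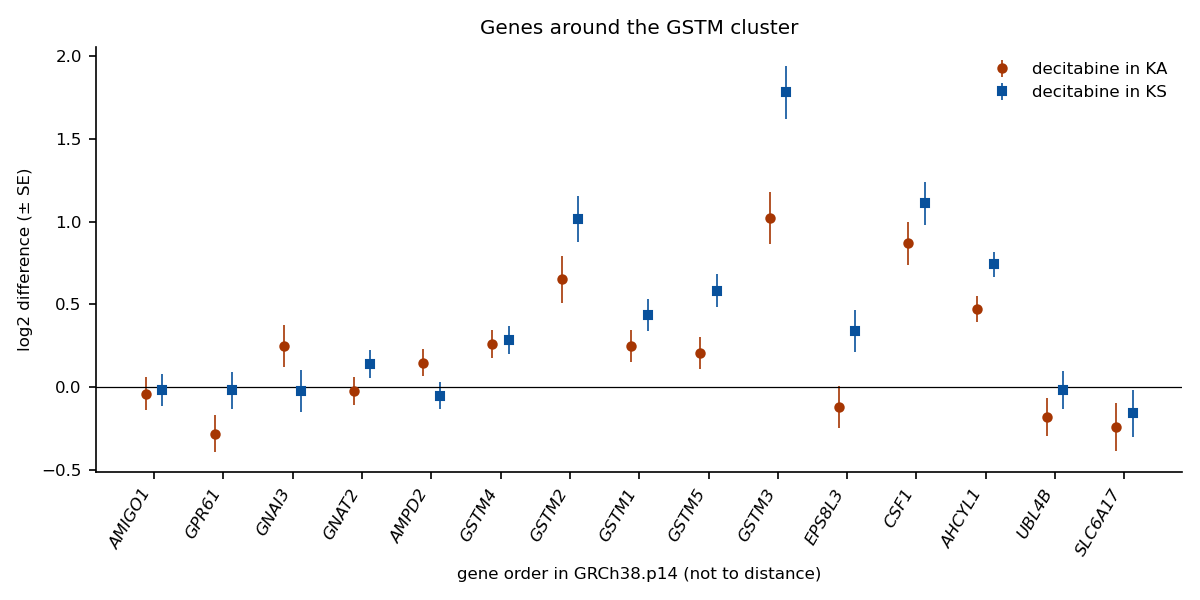
Decitabine difference (log2, ± SE) of the measured genes around the GSTM cluster in GRCh38.p14 order, in KA and in KS. GSTM3, GSTM2, CSF1 and AHCYL1 are above 0 in both lines, and the genes at either end of the row scatter around 0.

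The GSTM2 and GSTP1 start regions, shown with CG in capitals as before, contrast a transferase gene that rose with decitabine and one that did not. GSTM2 is at chr1:109667807-109668106 and GSTP1 at chr11:67583562-67583861, both on the plus strand of GRCh38.p14.
GSTM2: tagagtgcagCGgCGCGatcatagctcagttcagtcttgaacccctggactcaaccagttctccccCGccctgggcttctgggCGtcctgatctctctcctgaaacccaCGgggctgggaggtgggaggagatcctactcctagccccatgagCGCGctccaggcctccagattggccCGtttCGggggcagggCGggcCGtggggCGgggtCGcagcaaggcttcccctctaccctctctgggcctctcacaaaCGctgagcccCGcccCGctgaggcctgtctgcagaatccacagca
GSTP1: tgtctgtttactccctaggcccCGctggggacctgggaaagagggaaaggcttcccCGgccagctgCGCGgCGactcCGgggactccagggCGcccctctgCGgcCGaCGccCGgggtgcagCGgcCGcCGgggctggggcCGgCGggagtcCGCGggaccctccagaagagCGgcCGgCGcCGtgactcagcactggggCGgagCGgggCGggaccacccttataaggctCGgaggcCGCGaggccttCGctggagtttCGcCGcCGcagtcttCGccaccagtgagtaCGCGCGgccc
The GSTM2 window held 17 CG pairs (54.1% of windows held fewer) and that of GSTP1 held 36 (87.3% held fewer). GSTP1 read 11.81, 11.72 and 11.79 in untreated KS, 11.74, 11.78 and 11.75 in treated KS, 11.55, 11.55 and 11.50 in untreated KA, and 11.56, 11.50 and 11.62 in treated KA. GSTP1, the main cytosolic transferase of many tumour cells, was bright on all 12 arrays and slightly lower in KA, 1.18-fold without treatment (-0.24 ± 0.06, adjusted p = 0.0111) and 1.15-fold with it (-0.20 ± 0.06, adjusted p = 0.0289). Decitabine did not change it by the test in KA (0.03 ± 0.06, adjusted p = 0.829, 95% interval -0.11 to 0.16) or KS (-0.02 ± 0.06, adjusted p = 0.897, -0.15 to 0.12). The call between treated lines was lost on leaving out any treated KS replicate or treated KA replicate 1 or 2, with adjusted p from 0.054 to 0.12 over the 9 alternatives that lost it.

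GSTZ1 read 5.14, 5.04 and 5.20 in untreated KS, 5.27, 5.25 and 5.22 in treated KS, 5.62, 5.66 and 5.80 in untreated KA, and 5.75, 5.74 and 5.74 in treated KA. GSTZ1, maleylacetoacetate isomerase of tyrosine breakdown, was higher in every KA array than in any KS array, without treatment (0.57 ± 0.07, adjusted p = 5.12e-05) and with it (0.50 ± 0.07, adjusted p = 0.000135). GSTA4 read 4.19, 4.04 and 4.15 in untreated KS, 3.92, 4.23 and 4.03 in treated KS, 4.32, 4.93 and 4.64 in untreated KA, and 4.92, 4.62 and 4.50 in treated KA. GSTA4, which detoxifies the lipid peroxidation product 4-hydroxynonenal, was also higher in KA without treatment (0.50 ± 0.14, adjusted p = 0.0215) and with it (0.62 ± 0.14, adjusted p = 0.00569), and its untreated KA arrays were spread over the widest range of the group. Its call between untreated lines was lost without untreated KS replicate 2 or untreated KA replicate 2 or 3 (adjusted p 0.054 to 0.099). GSTO1, which reduces dehydroascorbate, was higher in untreated KA (0.21 ± 0.07, adjusted p = 0.0345), a call lost without untreated KS replicate 1 or 3 or untreated KA replicate 2 or 3 (adjusted p 0.060 to 0.12 over 8 alternatives). Decitabine lowered GSTO1 in KA (-0.31 ± 0.07, adjusted p = 0.00716), and in KS the difference was -0.02 ± 0.07, not called. GSTK1 of mitochondria and peroxisomes rose in KA (0.29 ± 0.07, adjusted p = 0.0103) and KS (0.22 ± 0.07, adjusted p = 0.0226).

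Among the 3 membrane-bound transferases, MGST2, a leukotriene C4 synthase, rose in KA (0.40 ± 0.08, adjusted p = 0.00506) and KS (0.28 ± 0.08, adjusted p = 0.0163). MGST3 rose in KS (0.26 ± 0.08, adjusted p = 0.0307), where its arrays overlapped, and MGST1, which protects membranes from lipid peroxides, fell in KS (-0.37 ± 0.12, adjusted p = 0.0302). In KA these differences were 0.24 ± 0.08 and -0.22 ± 0.12, not called, and the difference of responses was not called for either gene. The KS calls of these 3 genes and of GSTK1 were lost without untreated or treated KS replicate 2. Those of MGST1, MGST3 and GSTK1 were also lost without untreated KS replicate 1, those of MGST1 and GSTK1 without treated KS replicate 3, and that of MGST3 without treated KS replicate 1 (adjusted p 0.053 to 0.13 over all alternatives that lost them).

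In the thioredoxin system, TXN, the cytosolic thioredoxin, was lower in KA without treatment (-0.45 ± 0.09, adjusted p = 0.00179) and with it (-0.47 ± 0.09, adjusted p = 0.00108). TXNRD2, the mitochondrial reductase, was higher in untreated KA (0.36 ± 0.07, adjusted p = 0.00118). TXNRD1 read 7.97, 8.05 and 7.74 in untreated KS, 7.67, 7.58 and 7.50 in treated KS, 7.88, 7.97 and 7.92 in untreated KA, and 7.87, 7.77 and 8.03 in treated KA. TXNRD1, the cytosolic thioredoxin reductase and an NRF2 target, differed by 0.0038 ± 0.09 between untreated lines and fell with decitabine in KS (-0.34 ± 0.09, adjusted p = 0.0144), and every treated KS array lay below every treated KA array (0.30 ± 0.09, adjusted p = 0.0269). In KA the difference was -0.04 ± 0.09. The KS fall lost its call without untreated KS replicate 1 or 2 or treated KS replicate 3 (adjusted p 0.055 to 0.066), and the call between treated lines without treated KS replicate 2 or 3 or treated KA replicate 1 or 3 (0.056 to 0.12). TXN2, the mitochondrial thioredoxin, rose in KS (0.33 ± 0.08, adjusted p = 0.00678), read 0.02 ± 0.08 higher in KA, not called, and was lower in treated KA than in treated KS (-0.29 ± 0.08, adjusted p = 0.0174), a call lost without treated KS replicate 2 or treated KA replicate 1 or 2 (adjusted p 0.059 to 0.070). TXN has processed pseudogenes and is uncertain.

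Of 6 measured peroxiredoxin and sulfiredoxin genes, 3 fell with decitabine in each line and 0 rose, where 4.96% of all genes fell in KA and 15.7% in KS. PRDX2 read 7.20, 7.07 and 7.18 in untreated KS, 7.04, 7.11 and 7.23 in treated KS, 6.40, 6.36 and 6.36 in untreated KA, and 6.37, 6.36 and 6.12 in treated KA. PRDX2, abundant in red cells, was 1.71-fold lower in untreated KA (-0.78 ± 0.08, adjusted p = 1.34e-05) and 1.79-fold lower in treated KA (-0.84 ± 0.08, adjusted p = 5.58e-06), with no overlap of the lines. SRXN1 read 7.50, 7.57 and 7.29 in untreated KS, 6.87, 6.93 and 6.76 in treated KS, 7.08, 7.10 and 7.06 in untreated KA, and 6.75, 6.81 and 6.99 in treated KA. SRXN1 was lower in untreated KA than in untreated KS (-0.37 ± 0.09, adjusted p = 0.00678) and fell with decitabine in KS (-0.60 ± 0.09, adjusted p = 0.000215). The treated lines overlapped (0.0 ± 0.09, adjusted p = 0.988). In KA its difference was -0.23 ± 0.09 (adjusted p = 0.111), with every treated array below every untreated array. PRDX3 of mitochondria fell in KA (-0.34 ± 0.08, adjusted p = 0.0138) and KS (-0.30 ± 0.08, adjusted p = 0.0118), and PRDX4 of the secretory pathway fell in KA (-0.39 ± 0.07, adjusted p = 0.00283) and KS (-0.19 ± 0.07, adjusted p = 0.0474). PRDX1 fell in KA (-0.26 ± 0.06, adjusted p = 0.0140) and read -0.14 ± 0.06 in KS, not called. PRDX6, which also acts on phospholipids, was higher in KA without treatment (0.33 ± 0.07, adjusted p = 0.00182) and with it (0.29 ± 0.07, adjusted p = 0.00473). The KS fall of PRDX4 lost its call on leaving out any array except treated KA replicate 3 (adjusted p up to 0.23), and its difference between treated lines (-0.20, adjusted p = 0.0478) on leaving out any array except untreated KS replicate 2 or 3 (up to 0.18). The KS fall of PRDX3 lost its call without treated KS replicate 2 or 3 (up to 0.052). In KA the call of PRDX3 was lost without untreated replicate 1 (adjusted p = 0.0510) and that of PRDX1 without treated replicate 2 (0.0513).

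SOD2, the manganese superoxide dismutase of mitochondria, was higher in untreated KA (0.24 ± 0.08, adjusted p = 0.0374), SOD1, the copper and zinc enzyme of the cytosol, rose with decitabine in KS (0.21 ± 0.07, adjusted p = 0.0402) and catalase (CAT) rose in KS too (0.30 ± 0.07, adjusted p = 0.00427). In KA the SOD1 and CAT differences were -0.12 ± 0.07 and 0.07 ± 0.07. The SOD2 call was lost without untreated KS replicate 1 or 2 or untreated KA replicate 2 or 3 (adjusted p 0.055 to 0.14 over 8 alternatives), and the SOD1 call without untreated KS replicate 1 or 2, treated KS replicate 2, untreated KA replicate 2 or 3 or treated KA replicate 2 (0.052 to 0.16 over 9).

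HMOX1 read 4.37, 4.69 and 4.60 in untreated KS, 4.46, 4.55 and 4.58 in treated KS, 4.83, 4.47 and 4.56 in untreated KA, and 4.74, 4.73 and 4.58 in treated KA. HMOX1, the inducible haem oxygenase and a classical NRF2 target, was dim and was not called in any comparison, with differences between -0.02 and 0.15. HMOX2 read 8.58, 8.59 and 8.45 in untreated KS, 8.07, 8.14 and 7.87 in treated KS, 8.27, 8.35 and 8.32 in untreated KA, and 8.06, 7.94 and 8.07 in treated KA. HMOX2, the constitutive haem oxygenase, fell 1.43-fold with decitabine in KS (-0.51 ± 0.08, adjusted p = 0.000385) and 1.22-fold in KA (-0.29 ± 0.08, adjusted p = 0.0305). The KA call was lost on leaving out any KA array (adjusted p 0.058 to 0.11). Between untreated lines HMOX2 and BLVRB were not called, but without untreated KS replicate 3 HMOX2 was lower in KA (-0.27 ± 0.09, adjusted p = 0.0408) and BLVRB higher (0.21 ± 0.07, adjusted p = 0.0380). BLVRB, biliverdin reductase B, rose in KA (0.32 ± 0.07, adjusted p = 0.0107) and KS (0.47 ± 0.07, adjusted p = 0.000287). FTL, the ferritin light chain, was higher in KA without treatment (0.31 ± 0.07, adjusted p = 0.00667) and with it (0.21 ± 0.07, adjusted p = 0.0494); the second call was lost in 16 of 23 alternatives, on leaving out any array except treated KS replicate 1 (adjusted p 0.050 to 0.17), and FTL has processed pseudogenes and is uncertain.

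**Figure D3:**
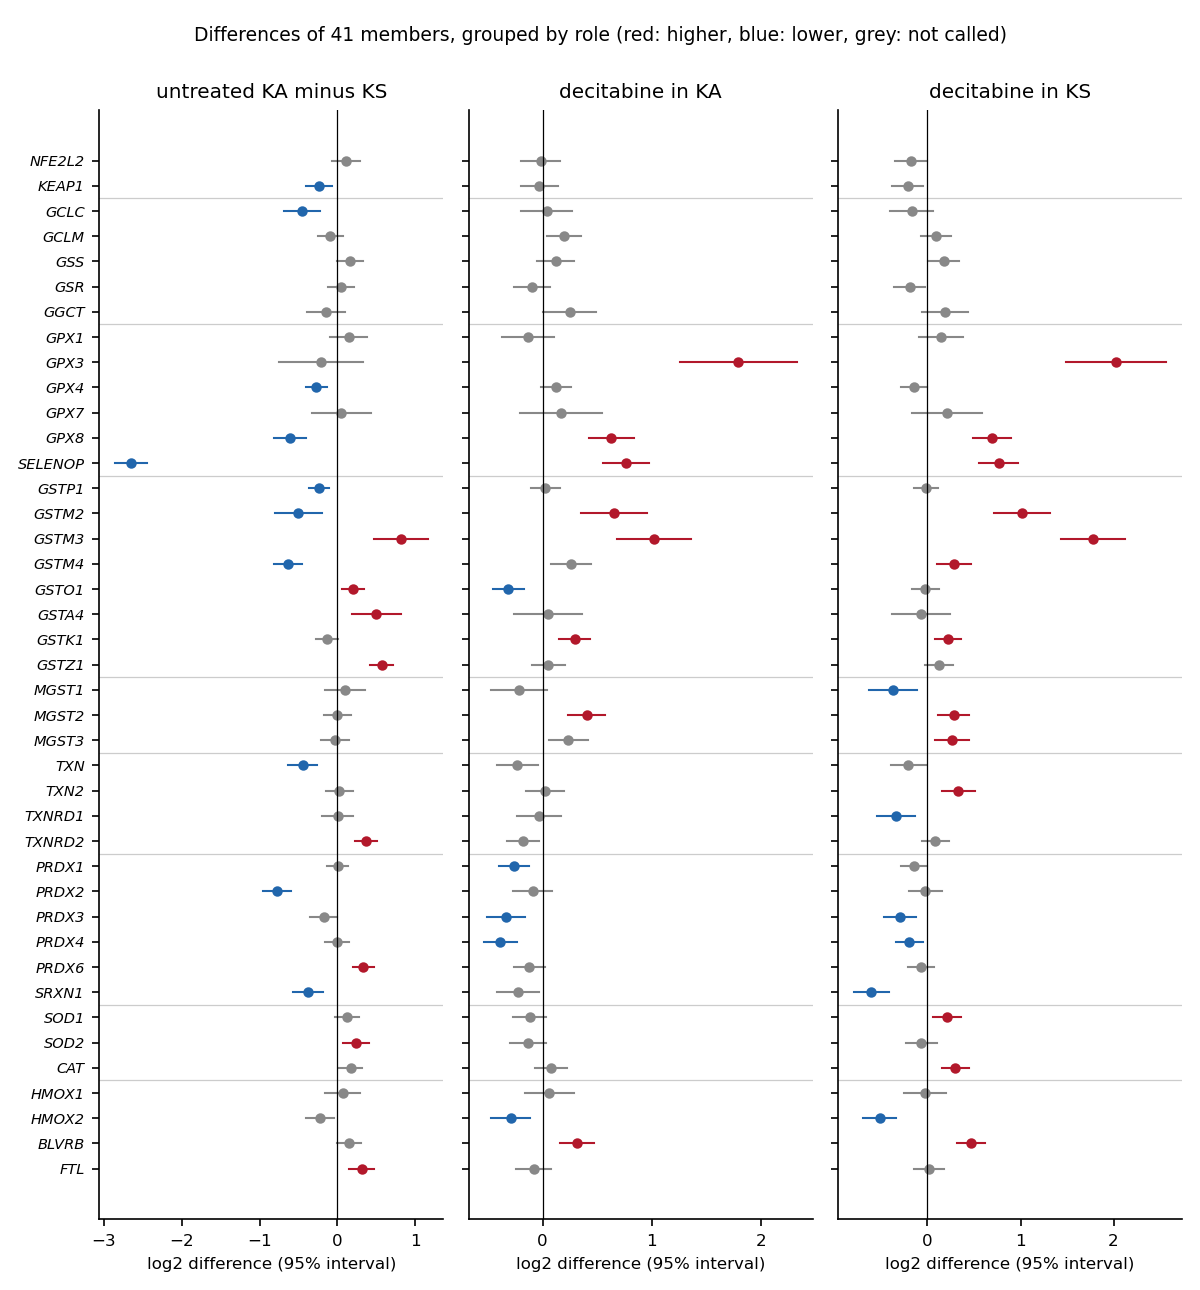
Log2 difference with its 95% interval for the 41 measured antioxidant genes, grouped by role, for untreated KA minus untreated KS, decitabine in KA and decitabine in KS (each panel has its own scale); red is called higher, blue called lower and grey not called. SELENOP at -2.65 between lines and GPX3 at 1.79 and 2.03 with decitabine lie farthest from 0.

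Whether the lines responded differently to decitabine was tested as the response in KA minus the response in KS. None of the 41 genes was called in limma, where 6.74% of all genes were. An unadjusted p under 0.05 was found for 9 of the 41 and for 4180 of all 18417 genes. Differences of responses of at least 0.5 were called in 2.49% of all genes in the higher and 1.54% in the lower direction. Without a limit of size, 847 genes were called higher and 394 lower, which became 611 and 522 with quantile normalization. The lowest adjusted p was that of GSTM3 (-0.76 ± 0.22, adjusted p = 0.0605, 95% interval -1.24 to -0.28). SOD1 (-0.33 ± 0.10, adjusted p = 0.0709), GSTO1 (-0.29 ± 0.09, adjusted p = 0.0815), GPX4 (0.27 ± 0.09, adjusted p = 0.0905) and SRXN1 (0.38 ± 0.13, adjusted p = 0.0943) followed. Without untreated KS replicate 3, 4 of the 41 genes were called, where 11.1% of all genes were: GSTM3 (-1.0 ± 0.12, adjusted p = 0.000749), GPX3 (-0.65 ± 0.13, 0.0104), SRXN1 (0.46 ± 0.11, 0.0261) and GPX4 (0.31 ± 0.09, 0.0444). The responses of GSTM3 and GPX3 were then larger in KS, with rises of 2.02 and 2.45 there against 1.02 and 1.79 in KA. Without both arrays in doubt 6 of the 41 genes were called, where 2035 of 18417 genes were, adding GCLC (0.41), GSTM2 (-0.59) and TXNRD1 (0.43) and losing GPX4. Both arrays were singled out because they lay towards the other KS group. Leaving them out therefore favours larger responses in KS, and the calls gained are no independent support for a difference. The test could miss differences of responses: on simulated data with 200 changed genes it found 28.6% of differences of 0.5 and 83.6% of differences of 1. In the data 1241 genes were called, so these shares may not carry over.

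**Figure D4:**
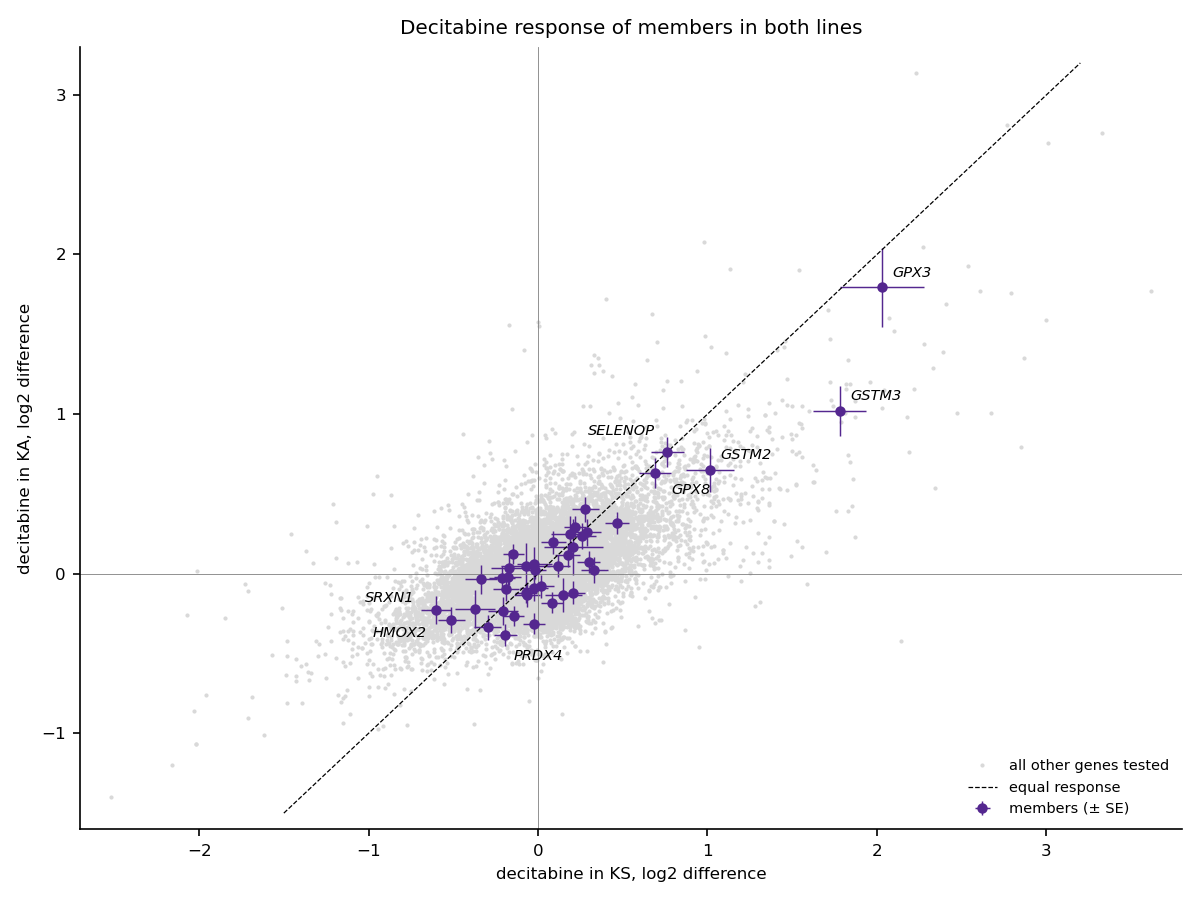
Decitabine difference in KA (vertical, log2) against that in KS (horizontal, log2) for the 41 antioxidant genes (± SE) and all other genes tested (grey); the dashed line marks equal responses. SELENOP and GPX8 lie near the dashed line, and GSTM3 and GSTM2 lie below it. The means of GPX8 were at or below the background limit in all groups except treated KS.

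After treatment the lines differed in 15 of the 41 genes, 6 higher and 9 lower in KA, where 27% of all genes were called (15.1% higher and 11.9% lower). The median difference over the 41 genes was -0.056, against -0.0015 over all genes. GSTA4, GSTZ1, PRDX6 and FTL were higher in KA before and after treatment (50% of 8 and 66.7% of 6, where 7.78% of all genes were called higher in both comparisons). GPX8, SELENOP, GSTP1, GSTM2, GSTM4, TXN and PRDX2 were lower before and after (63.6% of 11 and 77.8% of 9, where 7.07% of all genes were). Differences of at least 0.5 were called in 1 gene higher, GSTA4 (6.21% of all genes), and in SELENOP, GSTM2, PRDX2, GPX8 and GSTM4 lower (4.79%). The count of 15 fell to 9 without treated KS replicate 2 or treated KA replicate 1, where 23.7 and 23.2% of all genes were called.

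Of 91 other genes of these pathways, 83 were measured. Between untreated lines 39 were called (20 higher and 19 lower in KA), with decitabine in KA 20 (16 and 4), in KS 44 (23 and 21), for the difference of responses 15 (11 and 4) and between treated lines 45 (27 and 18). The shares of all genes called were 25.7, 14.6, 30.3, 6.74 and 27%, in that order. The KA count was 11 without untreated KA replicate 1, where 9.26% of all genes were called. The count for responses was 9 without untreated KS replicate 1 or treated KA replicate 2, 10 without treated KS replicate 2, untreated KA replicate 2 or treated KA replicate 3, and 22 without untreated KS replicate 3. Of all genes, 3.06, 3.64, 4.24, 3.45, 3.86 and 11.1% were called for responses in these settings, in that order.

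Cysteine and glutathione supply and breakdown were covered by 10 of the 83 genes. Without treatment 5 were higher and 1 lower in KA, decitabine raised 4 and lowered 0 in KA, and in KS it raised 1 and lowered 6. Of all genes, 11.6% were higher and 14.1% lower in KA without treatment, 9.66% rose and 4.96% fell in KA, and 14.6% rose and 15.7% fell in KS. The difference of responses was called in 4, all higher in KA, where 4.6% of all genes were, and after treatment 7 were higher and 0 lower in KA, where 15.1 and 11.9% of all genes were. SLC25A40, a mitochondrial glutathione carrier, was 3.35 ± 0.07 higher in untreated KA (adjusted p = 4.63e-12) and 3.23 ± 0.07 higher in treated KA. ABCB1 was 7.83 ± 0.15 higher in untreated KA. The genomic position of SLC25A40 relative to ABCB1 was not examined, and its part in the SLC25A40 difference was not tested. CTH, which makes cysteine from cystathionine, was 1.66 ± 0.09 higher in untreated KA and 2.52 ± 0.09 higher in treated KA.

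SLC7A11 read 8.61, 8.52 and 8.24 in untreated KS, 7.70, 7.17 and 7.29 in treated KS, 9.42, 9.46 and 9.46 in untreated KA, and 9.51, 9.44 and 9.61 in treated KA. SLC7A11, the cystine importer and an NRF2 target, fell in KS on every array (-1.07 ± 0.13, adjusted p = 4.45e-05) and differed by 0.08 ± 0.13 in KA. The difference of responses was 1.15 ± 0.18 (adjusted p = 0.00435), and treated KA lay 2.14 ± 0.13 above treated KS. Its partner chain SLC3A2 (0.83 ± 0.11, adjusted p = 0.00276), CTH (0.85 ± 0.12, 0.00289) and CHAC1, which degrades glutathione (0.94 ± 0.14, 0.00289), had differences of responses in the same direction; these 3 were named after their values were seen. Of the 15 other NRF2 partners and targets, 4 were called higher and 4 lower with decitabine in KS, and 2 and 2 in KA. Of all genes, 14.6% were higher and 15.7% lower in KS, and 9.66 and 4.96% in KA. NQO1, a quinone reductase and NRF2 target also named after its values were seen, fell in KS (-0.73 ± 0.11, adjusted p = 0.000259), and its difference of responses was not called (0.52 ± 0.16, adjusted p = 0.0661).

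TXNIP read 11.27, 11.25 and 11.23 in untreated KS, 11.41, 11.40 and 11.35 in treated KS, 9.0, 8.95 and 8.98 in untreated KA, and 8.16, 8.0 and 8.13 in treated KA. TXNIP, the inhibitor of thioredoxin, was lower in every KA array than in any KS array, by -2.27 ± 0.06 without treatment (adjusted p = 5.27e-11) and -3.29 ± 0.06 with it (1.70e-12). Decitabine lowered it further in KA (-0.88 ± 0.06, adjusted p = 1.76e-05), and the difference of responses was -1.02 ± 0.09 (adjusted p = 0.000821). SESN3, a stress-induced sestrin, was 1.22 ± 0.16 higher in untreated KA and rose by 0.68 ± 0.16 in KA and 1.62 ± 0.16 in KS (difference of responses -0.94 ± 0.22, adjusted p = 0.0276). IDH2, a mitochondrial source of NADPH, rose by 0.58 ± 0.15 in KA and 1.62 ± 0.15 in KS (difference of responses -1.05 ± 0.22, adjusted p = 0.0155). SQSTM1, an adaptor that binds KEAP1, rose by 0.73 ± 0.08 in KA and 0.67 ± 0.08 in KS. SELENOM, a selenoprotein of the endoplasmic reticulum, rose by 0.49 ± 0.11 in KA and 1.01 ± 0.11 in KS. Its difference of responses was not called (-0.52 ± 0.15, adjusted p = 0.0649) but was without untreated KS replicate 3 (-0.65 ± 0.12, adjusted p = 0.00821). Leaving out that array, which lay towards treated KS, favours larger responses in KS. Without that array the KS rises of SESN3 and IDH2 were 1.86 and 1.85. The IDH2 call in KA was lost on leaving out any KA array (adjusted p 0.054 to 0.075) and that of SESN3 without untreated KA replicate 1 (0.0540). The SESN3 difference of responses was lost without untreated KS replicate 1 or 2, treated KS replicate 2 or 3, untreated KA replicate 2 or 3 or treated KA replicate 2 or 3 (0.051 to 0.075).

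RefSeq start windows were matched for 33 of the 43 genes (47 windows). Over these windows the median CG count was 27, with a range of 0 to 46. The 7 matched genes raised by decitabine in both lines had a median of 17 (1 to 26), and the 38 windows of 25 other measured genes had a median of 29.5 (0 to 46). The letters TGACNNNGC, the core of the antioxidant response element that NRF2 binds with small MAF proteins, were searched on both strands. They occurred in 13.3% of all 34943 windows and in 9 of the 47 windows of these genes (19.1%), which belong to 8 of the 33 genes: KEAP1, GCLM, SELENOP, GSTP1, GSTO1, GSTA4, MGST1 and TXNRD1. A match each of GCLM, GSTP1 and TXNRD1, genes that NRF2 is known to drive, is shown with 10 bases on either side. That of SELENOP, the gene with the largest difference between lines, is shown too. The match is in capitals, and further matches of TXNRD1 are not shown. In the order given they lie in GRCh38.p14 at chr1:93909446-93909474, chr11:67583736-67583764, chr12:104215670-104215698 and chr5:42811973-42812001. All are on the plus strand, which is opposite to the gene for GCLM and SELENOP.
GCLM: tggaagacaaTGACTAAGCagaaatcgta
GSTP1: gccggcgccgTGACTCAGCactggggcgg
TXNRD1: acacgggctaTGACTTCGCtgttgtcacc
SELENOP: attcttgcagTGACCTTGCaagcagagca
A match describes the sequence and is not a binding site. Of the 4 genes shown, GCLM was not called in any comparison, alternatives aside, and SELENOP was called in 4.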

How the data were processed

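Expression was read on 12 arrays. The values are log2 intensities as the authors deposited them, with background correction, summarization and normalization not given in the sources used here, and no further scaling was applied. Genes were named from the platform annotation: of 33297 transcript clusters, 19460 carry 1 symbol, and the brightest cluster by mean over all arrays stood for each of 18417 genes. A linear model of the 4 groups was tested with limma's empirical Bayes (version 3.58.1 under R 4.3.3; residual df 8, prior df 4.71), and p was adjusted by Benjamini-Hochberg over all genes, separately for 5 comparisons. The 43 genes, the lists of other pathway genes and of markers, and the tests were chosen with earlier results of these data known. Values in every array are given for genes called with a difference of at least 0.5 and for NFE2L2, KEAP1, GCLC, GCLM, GSTP1, TXNRD1 and HMOX1. Of the other pathway genes, the 4 called with the largest difference in each comparison are named. Replicate numbers did not pair the arrays: same-numbered arrays of 2 groups correlated between -0.26 and 0.187 in their deviations from the group means.

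The fit was tested on simulated data with 200 changed genes in each of 10 simulations. It found 63.5% (untreated lines), 61.9% (decitabine in KA), 62.0% (decitabine in KS), 28.6% (difference of responses) and 60.9% (treated lines) of changes of 0.5, and 96.6, 97.1, 97.1, 83.6 and 97.3% of changes of 1. More than 200 genes were called in every comparison of the data, so these shares may not carry over. The number of arrays limits the precision. Alternatives were other moderation, scaling, cluster choices, array weights, a replicate block, fits of only the groups compared, and leaving out each array. Promoter windows are those of RefSeq for GRCh38.p14, 250 bases before to 50 after the start, and 10 of the 43 genes had none in the table used. Python 3.11.15 with matplotlib 3.10.9 made the figures.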

Additional observations from a re-analysis of the deposited data

Results flagged for a closer look

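For GPX4 and SOD1 every treated array lay on 1 side of the untreated arrays in each line, and on opposite sides in KA and KS. Of all genes, 19.5% had every treated array above and 16.4% below the untreated arrays in KA, and 19.3 and 20.7% in KS. SOD1 in KS was called, GPX4 in either line and SOD1 in KA were not, and neither difference of responses was called. GPX4, the lipid peroxide reductase, differed by 0.12 in KA and -0.15 in KS, and the difference of responses (0.27 ± 0.09) had an adjusted p of 0.0905 in limma. SOD1 differed by -0.12 in KA and 0.21 in KS, with a difference of responses of -0.33 ± 0.10 (adjusted p = 0.0709).

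Of the 83 other pathway genes, 15 had responses that differed between the lines by the test of the difference itself, and 5 of them, named because they had 1 of the 4 largest called differences of a comparison, follow. TXNIP differed by -1.02 (adjusted p = 0.000821), with a response of -0.88 in KA and a difference of 0.14 in KS that was not called. CTH differed by 0.85 (adjusted p = 0.00289), with opposite responses of 0.42 in KA and -0.43 in KS. SLC7A11 differed by 1.15 (adjusted p = 0.00435), IDH2 by -1.05 (0.0155) and SESN3 by -0.94 (0.0276).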

How the results depend on the processing

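Of the calls of the 41 antioxidant genes, 14 of 19 between untreated lines, 10 of 13 with decitabine in KA, 10 of 19 with decitabine in KS and 9 of 15 between treated lines were kept under every alternative run. No called gene named here changed direction under any of them. The count for the difference of responses rose from 0 to 4 with an intensity trend, 2 with quantile normalization, 5 with array weights and 6 without both arrays in doubt, and ran from 0 to 4 on leaving out single arrays. Over all genes the share called for responses was 6.74%, and 10.4, 6.15, 12.4 and 11.0% in the 4 settings named, and 3.06 to 11.1% without single arrays. The count for decitabine in KA was 20 with array weights, where 24% of all genes were called. Leaving out single arrays gave 15 to 20 between untreated lines, 11 to 14 for decitabine in KA, 11 to 20 for decitabine in KS and 9 to 16 between treated lines. The shares of all genes were then 20.8 to 26.5, 8.98 to 16.4, 24.6 to 31.4 and 22.7 to 28.8%. With the replicate block the counts were 16, 13, 15, 0 and 12 (untreated lines, decitabine in KA, decitabine in KS, responses, treated lines). Of all genes, 23.6, 12.2, 28, 4.22 and 25.3% were called there.

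Median differences over the 41 genes were near 0 and moved with the scaling. With median centring they were -0.0065 for decitabine in KS, -0.011 for responses and -0.032 for treated lines. With quantile normalization they were 0.056 for untreated lines, 0.074 for decitabine in KS, -0.071 for responses and -0.029 for treated lines. Without both arrays in doubt they were 0.039 for untreated lines and -0.019 for treated lines. Leaving out single arrays gave -0.025 to 0.039 for untreated lines, 0.00023 to 0.040 for decitabine in KA, 0.0025 to 0.066 for decitabine in KS, -0.065 to -0.0039 for responses and -0.071 to -0.017 for treated lines. Over all genes the difference of responses was called in 847 higher and 394 lower, and in 611 and 522 with quantile normalization. Causes of these shifts were not tested, and dim genes such as GPX8 are limited by signal over background.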
